A study of Mus musculus with 2 samples.

Results

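The T cell receptor complex and its coreceptors are described here by 10 genes: the CD3 chains Cd3d, Cd3e, Cd3g and Cd247, the coreceptors Cd4, Cd8a and Cd8b1, the kinase Lck, and the accessory receptors Cd2 and Cd5. They were chosen by name, and a probe was taken as theirs where the platform annotation gave that symbol. Of the 19318 genes with a named probe, 9 were members, with 10 probes in all, and Lck was not analysed here. Levels came from whole liver of mice aged 24 weeks on 2 single-colour arrays, 1 for each genotype. The Twist2-Cre/A20fl/fl liver (called CKO in the labels) carried floxed A20 alleles and the Cre, and the Twist2-Cre liver (control) carried the Cre, so both genotypes share the Twist2-Cre allele. Twist2-Cre acts in mesenchymal lineages, A20 is the ubiquitin-editing enzyme encoded by Tnfaip3, and how many animals each RNA came from is not stated in the labels. The comparison asks which transcripts differ between these livers.

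A T cell recognises peptide on an MHC molecule through its antigen receptor, which has no signalling tail of its own and signals through the CD3 chains. CD4 binds MHC class II and CD8 binds MHC class I, and both bring the kinase LCK to the receptor, so the coreceptors also separate helper from cytotoxic T cells. In liver, T cells are a minority among hepatocytes, and some of these genes are shared: CD8 alpha is also found on type 1 dendritic cells of the mouse, CD247 and CD2 on natural killer cells, and CD5 on some B cells. In bulk RNA, more cells of a type and more RNA per cell cannot be told apart.

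The promoters are shown because they belong to members that stood on different sides of the comparison: Cd8a, Cd3d and Cd3g were brighter on the CKO array, and Cd247 and Cd5 were not. Each line gives the 250 bases before the gene's start from the RefSeq table (GRCm38.p6), which held 7 of the 10 members, read 5′ to 3′ along the gene. Capitals mark matches on either strand to TGNGGT, a looser form of the RUNX core TGYGGT (Y is C or T), or to AGGAAG, a core bound by ETS factors. RUNX and ETS factors are both families of T lineage regulators. Of the TGNGGT matches shown, only that of Cd5 (ACCGCA) fits TGYGGT.
Cd8a, chr6:71373177-71373426, plus strand: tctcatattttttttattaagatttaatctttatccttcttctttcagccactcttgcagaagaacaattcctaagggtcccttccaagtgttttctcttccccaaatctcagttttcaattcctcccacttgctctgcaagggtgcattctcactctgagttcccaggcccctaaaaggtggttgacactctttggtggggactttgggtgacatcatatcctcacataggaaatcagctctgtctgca
Cd3d, chr9:44981536-44981785, plus strand: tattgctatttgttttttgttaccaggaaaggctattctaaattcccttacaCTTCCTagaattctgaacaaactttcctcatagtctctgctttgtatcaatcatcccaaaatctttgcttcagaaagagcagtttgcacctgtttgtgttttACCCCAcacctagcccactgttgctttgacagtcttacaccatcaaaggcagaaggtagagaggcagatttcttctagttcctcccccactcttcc
Cd3g, chr9:44980432-44980681, minus strand: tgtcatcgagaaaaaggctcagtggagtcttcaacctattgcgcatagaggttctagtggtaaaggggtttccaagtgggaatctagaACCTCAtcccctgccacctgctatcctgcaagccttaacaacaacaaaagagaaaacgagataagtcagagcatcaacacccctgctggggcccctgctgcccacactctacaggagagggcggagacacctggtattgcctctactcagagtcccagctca
Cd247, chr1:165788431-165788680, plus strand: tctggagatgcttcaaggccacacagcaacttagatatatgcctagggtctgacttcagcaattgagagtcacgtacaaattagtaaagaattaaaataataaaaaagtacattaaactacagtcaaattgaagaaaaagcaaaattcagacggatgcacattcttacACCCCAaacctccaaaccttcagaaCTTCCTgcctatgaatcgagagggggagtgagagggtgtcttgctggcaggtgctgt
Cd5, chr19:10738975-10739224, minus strand: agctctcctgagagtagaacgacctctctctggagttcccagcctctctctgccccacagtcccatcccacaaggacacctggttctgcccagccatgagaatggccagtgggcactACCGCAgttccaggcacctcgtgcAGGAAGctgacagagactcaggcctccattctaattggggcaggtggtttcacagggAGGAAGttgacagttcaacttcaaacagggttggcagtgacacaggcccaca

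The Cd8a stretch held neither pattern, while those of Cd3d, Cd247 and Cd5 each held both, and that of Cd3g held TGNGGT. Over all 32851 promoters of that table, 40.1% held TGNGGT and 29.5% the ETS core in the same stretch. Among the members with an entry, 6 of 7 held TGNGGT and 5 of 7 the ETS core. Members were counted per gene, in any of its promoters, and Lck had more than 1, while the shares over all are per promoter. The TGNGGT counts are not counts of the stricter TGYGGT. Cd3d had its TGNGGT match 96 bases and its ETS core 198 bases before the start, and Cd247 had them 82 and 57 bases before it. These are letters in a window and describe no binding. In that annotation Cd3g, Cd3d and Cd3e are neighbours on chromosome 9, and Cd8b1 and Cd8a are neighbours on chromosome 6.

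Most members lay close to the arrays' background, so each is given with its distance from the blank spots. The 384 blank spots averaged 69.3 on the CKO array (SD 1.45) and 67.2 on the control array (SD 1.17). A probe was taken as above background past the trimmed blank mean plus 2 SD, which was 72.1 on the CKO array and 69.4 on the control array. This line is lenient: of 3454 positions without a probe, 21.7% on the CKO array and 21.1% on the control array lay above it. By this line 7 members were above background on both arrays, Cd3g on the CKO array only, and Cd3e on neither. Of all genes, 73.4% were above it on both arrays, 2.41% on the CKO array only and 21.7% on neither. Hepatocyte markers were far above it, with deposited intensities for Alb of 36770 in the CKO and 37445 in the control liver. Tnfaip3 had deposited intensities of 38 in the CKO and 41 in the control liver, and the part of the transcript its probe reads is not known here, so it does not check the genotype labels.

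**Figure D1:**
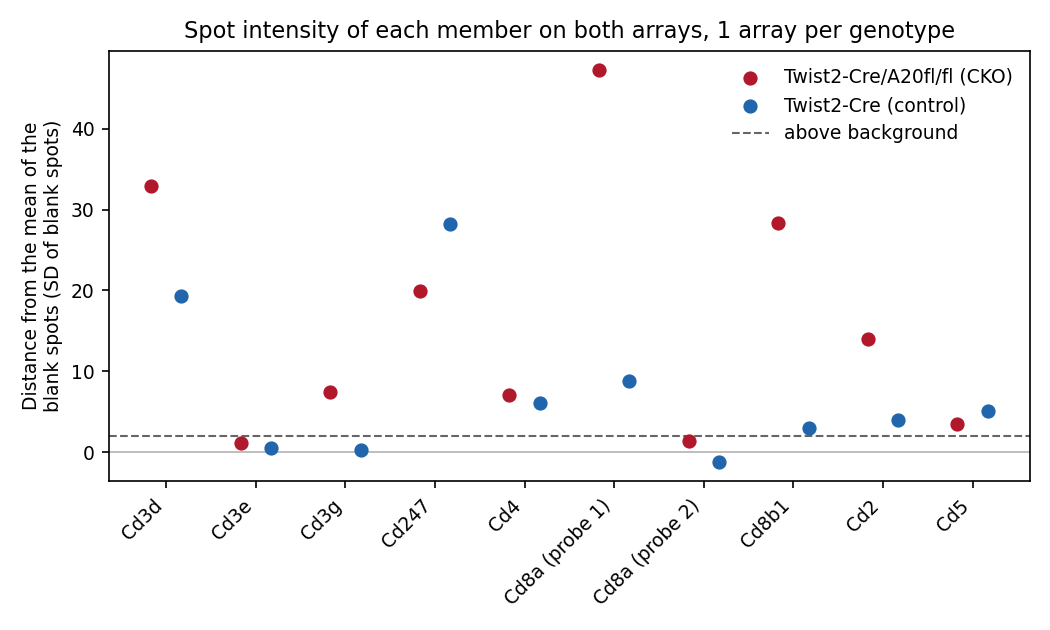
Distance of each member's probe from the mean of the blank spots, in SD of the blank spots (vertical axis), for the CKO array (red) and the control array (blue), 1 array per genotype; the dashed line is 2 SD. Probe 1 of Cd8a and the probe of Cd8b1 stood at 47.2 and 28.3 SD on the CKO array, against 8.84 and 2.99 SD on the control array, while Cd4 stood at 7.06 and 6.02 SD.

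Both CD8 chains were brighter on the CKO array, and for Cd4 no difference was detectable. Cd8a encodes the alpha chain, which forms CD8 dimers alone or with the beta chain, and its brighter probe (M400004660) had a deposited intensity of 56 in the CKO liver and 9 in the control liver. The spot stood 47.2 blank SD above the blank mean in the CKO liver, against 8.84 in the control liver. Cd8b1, the beta chain that marks conventional cytotoxic T cells, had 34 in the CKO liver and 3 in the control liver, at 28.3 and 2.99 blank SD. Both genes were therefore well clear of the blank spots in the CKO liver, while Cd8b1 in the control liver was barely so: 381 of 384 blank spots were dimmer than its spot there, but 8.43% of the positions without a probe were brighter. Cd4, the helper coreceptor, had 8 in the CKO liver and 6 in the control liver, at 7.06 and 6.02 blank SD. All 384 blank spots were dimmer than the Cd4 spot on either array, and 0.55% of the positions without a probe were brighter in the CKO liver, against 1.19% in the control liver.

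The blank spots also give a measure of error for the ratio, since 1 array per genotype leaves no spread between animals and no test. After subtraction of the blank mean on the deposited scale, Cd8a was 6.36-fold higher in the CKO liver, and moving both spots by 2 blank SD in opposite directions gave a range of 4.97 to 8.57. Cd8b1 was 11.3-fold higher with a range of 6.27 to 36.2, wide because its control spot lay so near the blanks. Cd4 had a fold of 1.39 with a range of 0.75 to 2.68, which holds 1. The ranges of both CD8 chains thus lay above that of Cd4 without overlap. These ranges cover the spread of blank spots on each array only, not differences between animals, hybridisations or scaling.

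**Figure D2:**
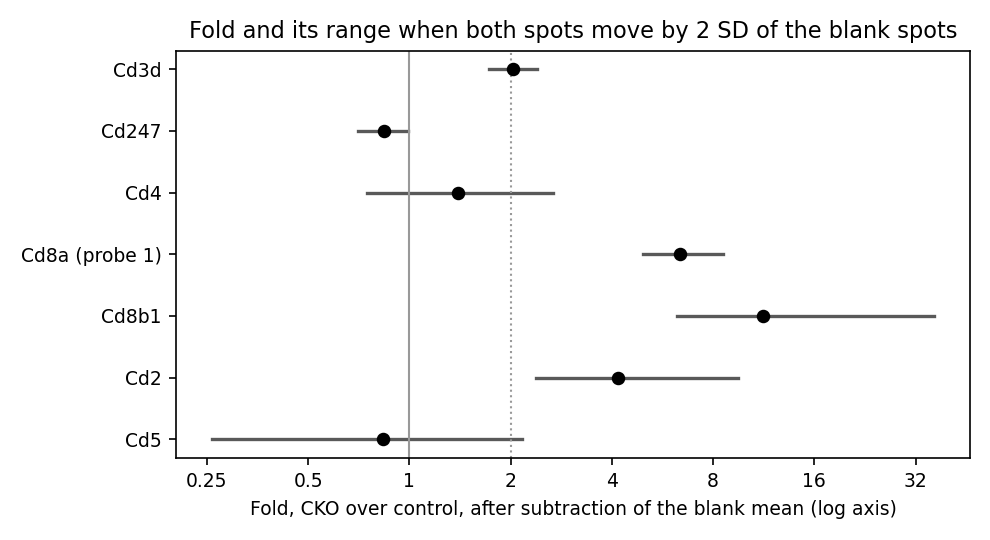
Fold of CKO over control (horizontal, log axis) for the 7 probes above background on both arrays; points are blank-subtracted folds and lines their range when both spots move by 2 SD of the blank spots in opposite directions. The lines of Cd8a and Cd8b1 start at 4.97 and 6.27, beyond the end of the Cd4 line at 2.68.

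On the normalized scale the same contrast was smaller, because an offset of 50 added to every spot pulls the ratios of dim genes towards 0. The log2 ratio of CKO over control was 0.71 for Cd8b1, 0.49 for Cd8a as the mean of its probes, and 0.06 for Cd4. The mean of the CD8 chains exceeded Cd4 by 0.54 in log2 ratio on that scale. With the deposited values the difference of log2 ratios was 2.65, and against the local background column it was 0.10. The local background read beside the brighter Cd8a spot was itself 120.7 on the CKO array and 73.8 on the control array, where the spot read 137.6 and 77.4. The local background beside Cd8b1 was 78.3 and 59.2, and beside Cd4 it was 64.2 and 62.3. Among the other member probes the highest local background on the CKO array was 80.8, for Cd247, so that of the brighter Cd8a spot stood apart. As a yardstick, ratios built from the positive control spots, which measure spot-to-spot error of bright spots, had a spread of 0.23 (SD of log2). The contrast was above 0 in these settings, but against the local background column it was smaller than that spread of 0.23. Its size moved with the background handling and with the choice of Cd8a probe. With the brightest probe of each gene it was 0.75 on the normalized scale.

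**Figure D3:**
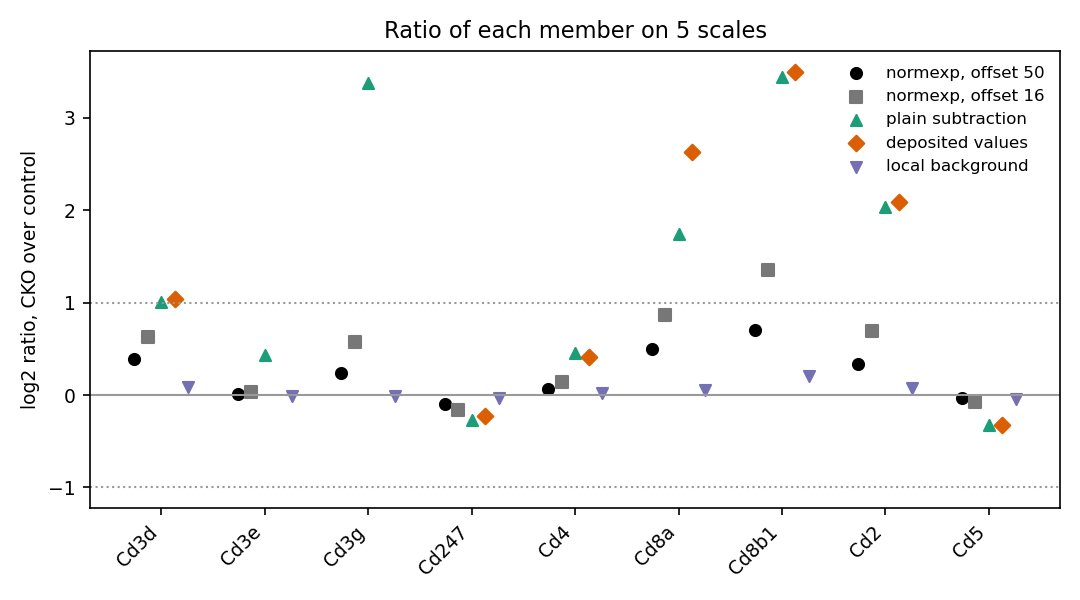
Log2 ratio of CKO over control (vertical) for the 9 members with a probe, on 5 scales that differ in background handling; 1 array per genotype, so there are no error bars, and dotted lines mark 2-fold. Cd8b1 moves from 0.20 against the local background to 3.50 in the deposited values, while Cd4 stays between 0.02 and 0.46; the plain-subtraction points of Cd3e and Cd3g rest on spots not above background.

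The second Cd8a probe (M400018716) did not show the difference. It was not above background on either array, at 1.43 blank SD in the CKO liver and -1.20 in the control liver, and the deposited table lists no value for it. A probe without signal gives only a bound, so it neither repeats nor contradicts the other. Restricted to probes above background on both arrays, an alternative added after the values were seen, Cd8a had a log2 ratio of 0.91 on the normalized scale.

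The slide around these spots was also read. The brightest of the 8 positions around the Cd8a spot had an intensity of 1752 on the CKO array and 1898 on the control array, and the median neighbour 71.7 and 68.6. Around Cd8b1 the brightest neighbour had 120.3 on the CKO array and 99.1 on the control array, and the median neighbour 76.6 and 73.7. The Cd8b1 spot itself read 110.2 on the CKO array and 70.6 on the control array. The part of neighbouring spots in these values was not tested.

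The CD3 chains did not move as 1 group. Cd3d, the delta chain, had deposited intensities of 39 in the CKO and 19 in the control liver, at 32.9 and 19.3 blank SD. Its fold was 2.03, with a range of 1.73 to 2.40, and its normalized log2 ratio was 0.39. Cd3g, the gamma chain, had 9 in the CKO liver and no listed value in the control liver. Its spot stood 7.4 blank SD from the blank mean in the CKO liver, against 0.28 in the control liver. It was at least 1.14-fold higher on the normalized scale, taking as its control level the lowest signal above background there.

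Cd247, the zeta chain with most of the receptor's signalling motifs, was slightly dimmer on the CKO array, with 24 in the CKO and 28 in the control liver. Its spots stood 19.9 and 28.2 blank SD from the mean, clear of background on both arrays. Its fold was 0.839 with a range of 0.705 to 0.993, and the log2 ratio was -0.10, smaller than the spread of the positive control spots. Cd3e, the epsilon chain, was not above background on either array, at 1.15 blank SD in the CKO and 0.559 in the control liver, and its level was not detectable there. The CD8 chains exceeded the mean of the CD3 chains, Cd3e and Cd3g included, by 0.47 in normalized log2 ratio, and their fold ranges lay above that of Cd3d. Cd3g had no fold to set beside them, because its control spot was not above background, so by fold it was not compared with the CD8 chains.

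The accessory receptors differed from each other. Cd2, an adhesion receptor of T and natural killer cells, had deposited intensities of 17 in the CKO and 4 in the control liver, at 14.1 and 4.01 blank SD. Its fold was 4.17 with a range of 2.39 to 9.52, and 3.76% of the positions without a probe were brighter than its control spot. Cd5, a receptor that dampens T cell receptor signals, had 4 in the CKO and 5 in the control liver, at 3.54 and 5.05 blank SD. Its fold of 0.833 had a range of 0.259 to 2.16, so no difference was detectable so near the blanks.

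Over the 7 members above background on both arrays, 5 had a ratio above 0, a share to be set beside 42.2% of the 14183 genes above background on both. Their median normalized log2 ratio was 0.33, against -0.02 over all those genes. No member was at least 2-fold higher on the normalized scale, where 0.635% of genes were, and none was at least 2-fold lower, where 0.0776% were. With an offset of 16, 1 member, Cd8b1, was at least 2-fold higher, beside 1.28% of genes, and with plain subtraction of the blank mean 4 were, beside 3.06%. In the deposited values 4 members were at least 2-fold higher, Cd8b1, Cd8a, Cd2 and Cd3d, beside 3.81% of the genes listed on both arrays, and none was at least 2-fold lower, beside 1.08%. The fold range lay wholly above 1 for those same genes, beside 19.1% of probes above background on both arrays, and wholly below 1 for Cd247 alone, beside 29.6%. Its lower end reached 2 for Cd8b1, Cd8a and Cd2, beside 1.7% of probes. These counts describe members that passed the background line and were chosen with earlier results known.

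Among T lineage markers, Thy1 and Cd28 were brighter on the CKO array beside Cd3d and Cd2. Of 14 listed, 8 were above background on both arrays, with 5 higher, beside 42.2% of all genes above background on both, and 3 lower. None was at 2-fold on the normalized scale, and the median log2 ratio on it was 0.11. By blank-subtracted fold, 3 of these 8 were at least 2-fold higher (Cd3d, Cd2 and Thy1) and none was at least 2-fold lower, beside 3.09% and 0.495% of probes above background on both arrays. Their median fold was 1.77, against 0.958 over all those probes, and the list's blank-subtracted levels summed to 164.2 in the CKO and 91.6 in the control liver. Sums of this and the later lists take a probe on an array only where it was above background there, so Cd3g entered the CKO sum alone. Thy1, a surface protein of T cells that fibroblasts also carry, had deposited intensities of 41 in the CKO and 12 in the control liver on its brighter probe, a fold of 3.45 with a range of 2.77 to 4.41. The costimulatory receptor Cd28 had 14 in the CKO and 8 in the control liver, a fold range of 1.14 to 2.62. The list holds members described above, so its count is not separate from theirs.

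Other genes of the CD8 lineage did not follow the CD8 chains as a group. Of 6 listed, 4 were above background on both arrays, and apart from Cd8a and Cd8b1 these were the transcription factors Runx3 (log2 ratio -0.08, deposited intensity 11 in the CKO and 14 in the control liver) and Eomes (-0.04). Granzyme K (Gzmk) was above background on the CKO array only, at 6.83 blank SD against 0.07 in the control liver, and Crtam on neither. On the normalized scale, where the offset pulls bounds towards 1, Gzmk was at least 1.13-fold higher. Of 5 CD4 lineage genes, 4 were above background on both arrays, with a median log2 ratio of 0.00. The helper factor Zbtb7b had 35 in the CKO and 36 in the control liver, and the costimulator Icos had 17 and 16. Foxp3, the regulator of regulatory T cells, had 52 in the CKO and 54 in the control liver on 1 probe. Its other probe was not above background on either array, and Cd40lg was on neither. The probes of Zbtb7b, Icos and Foxp3 with listed values read brighter than that of Cd4 (8 in the CKO and 6 in the control liver). Which cells these values come from was not tested.

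Genes of receptor signalling had members on both sides, with 7 of 24 fold ranges wholly above 1 and 2 wholly below 1. Over all probes above background on both arrays the shares were 19.1% and 29.6%. Of 34 listed, 24 were above background on both arrays, with 16 higher, beside 42.2% of all genes above background on both, and 8 lower. None was at 2-fold on the normalized scale, and the median log2 ratio on it was 0.02. By blank-subtracted fold, 5 of the 24 were at least 2-fold higher and none at least 2-fold lower, beside 3.09% and 0.495% of those probes. The median fold was 1.10, against 0.958 over all those probes. On the normalized scale the 4 largest ratios were those of Ptprc (CD45, carried by all leukocytes; 0.81, deposited intensity 88 in the CKO and 31 in the control liver), the adaptor Fyb (0.67, 97 and 44), the phosphatase Ptpn6 (0.48, 42 and 17) and the phosphatase Ptpn22 (0.40, 18 and 3). By blank-subtracted fold the order differed: Ptpn22 was 6.81-fold higher (range 3.38 to 31.1) and Vav1, an exchange factor downstream of the receptor, 5.19-fold (range 2.57 to 19.8; 15 in the CKO and 3 in the control liver), ahead of Ptprc (2.85, range 2.61 to 3.14), Ptpn6 (2.41) and Fyb (2.21). Zap70, the kinase that docks on the phosphorylated CD3 chains, had 222 in both livers. The list was chosen by pathway and not by cell type. Which cells the values of Ptprc, Fyb, Ptpn6, Ptpn22, Vav1 and Zap70 come from was not tested. Lat, the adaptor that this kinase phosphorylates, had 7 in the CKO and 4 in the control liver. Themis, Rasgrp1, Cblb, Sit1, Trat1 and Pag1 were above background on neither array, and Plcg1 and Txk on the CKO array only.

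Among 25 surface costimulators, 12 were above background on both arrays, with 9 higher, beside 42.2% of all genes above background on both, and 3 lower. None was at 2-fold on the normalized scale, and the median log2 ratio on it was 0.10. By blank-subtracted fold, 4 of the 12 were at least 2-fold higher and none at least 2-fold lower. The shares over all probes above background on both arrays were 3.09% and 0.495%. The 4 were Ly9 (4.14), Cd48 (3.82), Tnfrsf18 (2.28) and Tnfrsf9 (2.195, range 1.10 to 5.28). The median fold was 1.495, against 0.958 over all those probes. On the normalized scale Ly9 (0.66, deposited intensity 42 in the CKO and 10 in the control liver) and Cd48 (0.49, 29 and 8), both of the SLAM family, were the largest, followed by Tnfrsf18 (0.25) and Il2rb (0.20). Il7r, the interleukin-7 receptor of naive and memory T cells, was above background in the control liver only, with no listed value in the CKO and 11 in the control liver, and Slamf6, Cd44 and Ccr7 were on neither array. Of 19 T lineage transcription factors, 14 were above background on both arrays, with 4 higher, beside the same 42.2% of all genes, and 10 lower. Their median was -0.03, and none was at 2-fold in either direction on either scale. By the size of the normalized log2 ratio they were led by Id3 (-0.69, deposited intensity 800 in the CKO and 1366 in the control liver), then Tox (0.24, 48 and 34), Id2 (-0.22, 2120 and 2628) and Tbx21 (-0.09). Id2 and Id3 are also expressed outside lymphocytes.

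Markers of other cells that carry these genes were read beside the members. Among 8 natural killer markers, 4 were above background on both arrays (median log2 ratio 0.17), 1 on the CKO array only and 3, Ncr1, Klrb1c and Klra8, on neither. Their blank-subtracted levels summed to 96.3 in the CKO and 28.3 in the control liver. In the CKO liver the largest terms were granzyme A (Gzma, 36, against 5 in the control liver) and Nkg7 (26). Nkg7 was above background on the CKO array only, so it entered the CKO sum alone and the sums do not cover the same genes. Eomes had 16 in the CKO and 17 in the control liver, and Klrd1 14 and 4. Eomes is also on the CD8 list above, and the part of CD8 T cells in this sum was not tested. Of 6 type 1 dendritic markers, 4 were above background on both arrays, Clec9a on the CKO array only and Xcr1 on neither. Those 4 had a median log2 ratio of 0.17 and a median blank-subtracted fold of 1.32. The list's sums were 534.8 in the CKO and 539.8 in the control liver, with Itgae and Cadm1 as the largest terms. Irf8 had 99 in the CKO and 33 in the control liver, Batf3 43 and 27, Cadm1 138 and 134, and the brighter Itgae probe 246 and 346. B cell markers summed to 99.0 in the CKO and 92.6 in the control liver, with Cd79b at 51 and 39, Cd22 at 30 and 36, and Pax5 above background on neither array. The part of natural killer, dendritic and B cells in the values of Cd8a, Cd2, Cd247 and Cd5 was not tested.

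Plasmacytoid dendritic markers had a median log2 ratio of 0.03 over 3 genes, with Bst2 at 0.53, Ccr9 at -0.08 and Siglech at 0.03, and Tcf4 was above background on neither array. For gamma delta T cells, Sox13 (-0.25) was above background on both arrays and Blk on neither. Of the lists read here, the macrophage markers had the largest median log2 ratio on the normalized scale, at 0.82. All 5 above background on both arrays were higher, 2 past 2-fold on the normalized scale and 3 by blank-subtracted fold. Over all genes above background on both arrays, 42.2% were higher and 0.635% were at least 2-fold higher on the normalized scale. Of the probes above background on both, 3.09% were at least 2-fold higher by blank-subtracted fold. The macrophage list was led by Marco (1707 in the CKO and 74 in the control liver). Its sums were 3801 in the CKO and 1015 in the control liver. Its median blank-subtracted fold was 2.10, against 2.89 for the natural killer markers and 3.63 for the CD8 markers. The CD8 median rests on the members Cd8a and Cd8b1, since the folds of Eomes (0.911) and Runx3 (0.786) lay below 1. Adgre1 was at least 1.06-fold higher on the normalized scale, above background on the CKO array only. Hepatocyte markers had a median of 0.07 over 6 genes and endothelial markers one of -0.20 over 4, with Oit3 at -0.64, Kdr at -0.43 and Cdh5 above background on neither array.

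**Figure D4:**
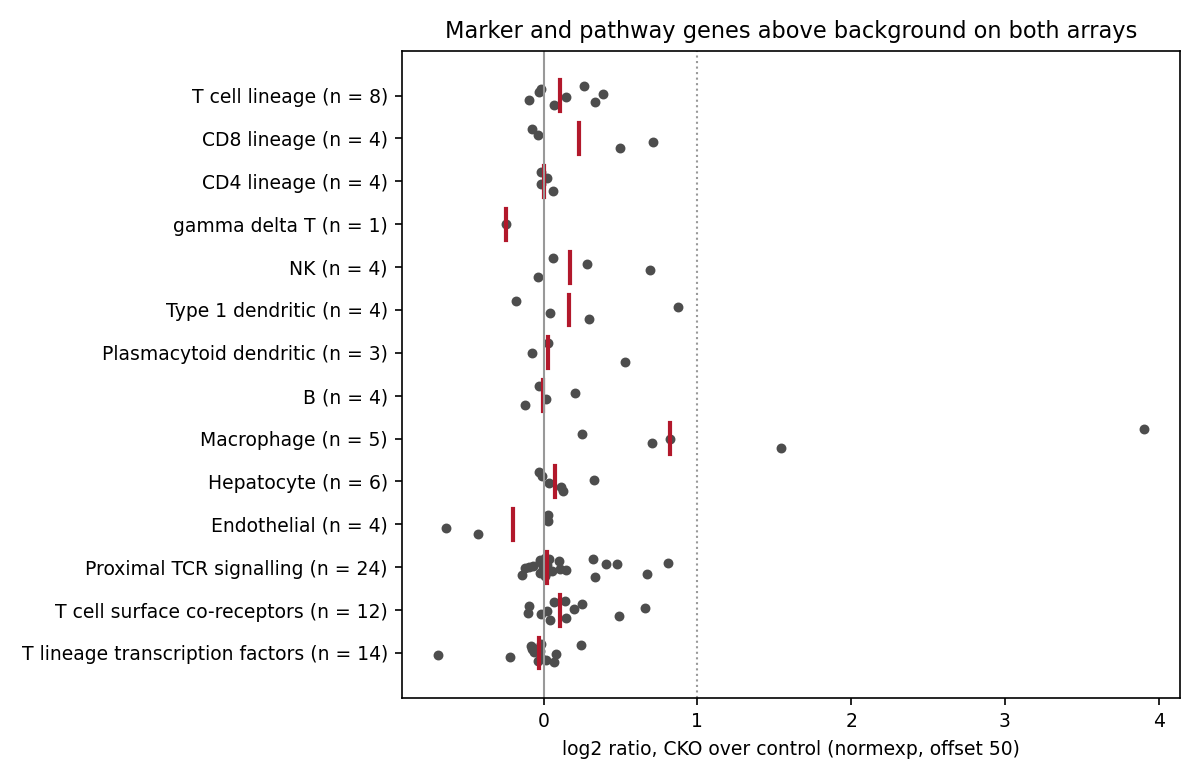
Log2 ratio of CKO over control (horizontal) for genes of each marker or pathway list that were above background on both arrays; points are genes, red bars medians, and the dotted line is 2-fold. The medians run from -0.25 for the single gamma delta gene to 0.82 for macrophages, and those of the other T lineage and signalling lists lie between -0.03 and 0.23.

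The genes whose brightness on the 2 arrays was most like that of Cd8b1, by Euclidean distance over the pair of normalized log2 levels, were Gm8979 (distance 0.02), the chemokine Ccl4 (0.05), the DNA topoisomerase Top2a (0.06), granzyme A (Gzma, 0.07) and the guanylate-binding protein Gbp4 (0.08). Their deposited intensities ran from 29 to 36 in the CKO liver and from 2 to 5 in the control liver. Top2a was above background on the CKO array only. The distance compares the brightness of different probes on 2 arrays, so it does not compare transcript amounts.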

How the data were processed

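Per the labels' protocols, total RNA of liver was amplified with an amino allyl kit, coupled to Cy5 and fragmented; single-colour arrays were read, 1 per genotype. Per the file headers, the scanner files hold median intensity of the spots and of the background beside them, integrated over 3 gains. The deposited value table holds intensity on a linear scale, uncentred, in the direction of each sample. Set against the scanner files, it is the spot minus the blank spots' trimmed mean (5% at each end), times 0.825 (CKO) or 0.859 (control), rounded, to within 0.514 and 3.52; how the authors made it is not stated. Its medians are 25 on both arrays.

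Spots were corrected with normexp (limma 3.58.1, R 4.3.3) against the mean of the blank spots, offset 50, quantile-normalized without control spots and put on the log2 scale. The local background column was an alternative. A gene was the mean of its probes: 20687 of 23470 gene probes had 1 symbol, 0 several and 2783 none, and 4 spots flagged by the scanner were left out. Member symbols matched RefSeq by Entrez ID for 10 of 10 probes. Ratios are CKO over control. A gene detected on 1 array was given as a bound against the lowest normalized signal above background. The offset pulls such a bound towards 1. With 1 array per genotype there is no test, and precision is limited by the number of arrays. The procedure was tested on simulated data, with changes set only in genes whose control spot lay more than 10 above the blank mean. The control spots of Cd8b1, Cd2, Cd4, Cd5, Cd3e and Cd3g were dimmer than that, so the simulation does not cover them. Members and lists were chosen with earlier results of these data known. Named were all members, per list up to 4 genes with the largest absolute ratio plus genes near background, and the 5 genes nearest to Cd8b1; Lat, Zap70, Tnfaip3, Vav1, Tnfrsf9 and further marker values were added after their values were seen.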

Additional observations from a re-analysis of the deposited data

How the results depend on the processing

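Under median scaling and cyclic loess, all 9 members with a probe moved by less than the positive control spread of 0.23. These settings keep the offset and change only the scaling between arrays, so they do not test the background handling. Leaving out the filter on dim probes changes only which genes are counted. The ratio of each member is then the same by construction, which is no check on it. The 5 members with a ratio above 0 became 7 of 9 with no filter. The number at least 2-fold higher, 0 on the normalized scale, was 1 with an offset of 16, 4 with plain subtraction and 4 in the deposited values. The members' median of 0.33 was 0.63 with an offset of 16, 1.01 with plain subtraction, 1.04 from the deposited table and 0.051 with local background. The CD8 minus CD4 difference of 0.54 was 0.97, 2.13, 2.65 and 0.10 in the same order of settings, and 0.75 with the brightest probe. The CD8 minus CD3 difference of 0.47 was 0.84, 1.45, 2.66 (over 2 CD3 chains) and 0.12. Cd3e and Cd3g, each near background on at least 1 array, turned sign with local background. No paired analysis was possible because each genotype has 1 array. Signal over background also limits these values: Cd3e and Cd3g gave no fold, and Cd8b1 has a control spot that 8.43% of the positions without a probe exceed.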
